A study of Mus musculus with 18 samples.

Results

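The mitochondrial genome encodes 37 genes, and all of them were present in the deposited tables, as 37 of 47729 Ensembl genes. They were chosen by position, as every gene that the GENCODE M21 annotation of mouse build GRCm38 places on chrM, and their symbols start with mt-. They comprise 13 protein-coding genes, 2 rRNA genes and 22 tRNA genes. The tables come from RNA sequencing of ileal epithelial cells that were isolated by flow cytometry from female mice, with 6 libraries per group: virgin, pregnant and pseudopregnant. A pseudopregnant mouse is in the hormonal state that follows a mating without conceptuses. All groups were kept on the same breeding (RM3) and maintenance (RM1) chow, and no genetic alteration is given for any of them. The labels give no strain, age, day of pregnancy or way of inducing pseudopregnancy, and they do not say that replicates came from separate animals, so p-values here measure the spread between these samples. Libraries were made from poly(A) RNA.

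Mitochondrial DNA is transcribed from both strands into long precursors, and the tRNAs that lie between most genes are cut out to release the mRNAs and rRNAs. The mRNAs encode core subunits of the respiratory chain: complex I, which oxidises NADH (mt-Nd genes), complex III (mt-Cytb), complex IV, which reduces oxygen (mt-Co genes), and the ATP synthase (mt-Atp genes). All other subunits, the mitochondrial RNA polymerase and the proteins of the mitochondrial ribosome come from nuclear genes. Short tails of adenosine are added to the rRNAs and to most of the mRNAs but not, in the mature form, to tRNAs. A poly(A) library therefore samples them unequally. Absorptive cells of the ileal villus are rich in mitochondria.

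Pieces of mitochondrial DNA have also been copied into the nuclear chromosomes, and some of these copies cannot be told from the original by a sequencing read. The first 90 bases of mt-Co2, which encodes a catalytic subunit of complex IV, are shown with the same stretch of 2 nuclear copies, because the counts of the copies bear on every level below. Capitals mark bases that differ from mt-Co2. The stretches lie at chrM:7013-7102 (plus strand), chr1:24615476-24615565 (minus strand) and chr2:22587873-22587962 (minus strand) of GRCm38, and positions count from 1 at the first base of the gene.
mt-Co2: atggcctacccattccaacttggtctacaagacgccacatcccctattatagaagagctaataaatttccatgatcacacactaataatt
Gm28661: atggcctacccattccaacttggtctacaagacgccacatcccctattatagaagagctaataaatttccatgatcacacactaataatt
Gm13341: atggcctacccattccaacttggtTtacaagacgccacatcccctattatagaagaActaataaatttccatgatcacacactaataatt
Gm28661 held no difference in this stretch or in the whole 681 bases it covers, whereas Gm13341 held C25T and G57A here and 16 mismatches in all.

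Also shown are the ends of mt-Atp8 (chrM:7880-7969) and mt-Nd4l (chrM:10114-10173), both on the plus strand, because each runs into the gene that follows it. Capitals mark the bases shared with the start of mt-Atp6 (43 bases) and of mt-Nd4 (7 bases). A read from such an overlap belongs to both genes.
mt-Atp8: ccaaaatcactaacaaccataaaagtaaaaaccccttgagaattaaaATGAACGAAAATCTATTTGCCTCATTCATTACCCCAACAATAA
mt-Nd4l: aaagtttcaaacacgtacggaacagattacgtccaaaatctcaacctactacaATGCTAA

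A block of 7 pseudogenes on chromosome 1 (chr1:24611535-24616197, minus strand) was at least 99% identical to mitochondrial genes, and 4 of the 7 carried nearly as many counts as the gene they match. The block follows the order of the mitochondrial genome from the 3′ part of mt-Co1 to the 5′ part of mt-Nd4, and it covers at least 50% of mt-Co2, mt-Atp6, mt-Co3, mt-Nd3, mt-Nd4l and mt-Nd4. Gm28437, the copy of mt-Co3, held 99.8% to 100.5% of that gene's count in the 18 libraries. Gm28438 held 99.2% to 99.7% of mt-Nd3, Gm10222 97.8% to 98.9% of mt-Nd4l, and Gm28661 98.8% to 99.9% of mt-Co2. The median difference between mt-Co3 and Gm28437 was 162.5 reads, against 744.5 reads of counting SD had each read been assigned to one of the pair at random, and the difference was under that SD in 16 of 18 libraries. For mt-Nd3 it was under that SD in 18 of 18 libraries, for mt-Nd4l in 12 and for mt-Co2 in 8. How the authors' counting treated reads that align to several places is not given in the sources used here.

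The other members of the block differed more from their originals. Gm10925, a copy of mt-Atp6 that contains the 43-base overlap but has no separate copy of mt-Atp8, held 105% to 121% of the mt-Atp6 count. Gm28439 covers bases 1 to 876 of the 1378 bases of mt-Nd4 and held 16.6% to 58.9% of its count. Gm29216 covers bases 1063 to 1545, the 3′ end of mt-Co1, and held 30.2% to 69.7% of its count. Copies at 95% to 98% identity held few counts: Gm13340 (of mt-Co1) held a median of 3.53% of the gene's count, Gm13341 (of mt-Co2) 3.595% and Gm13339 (of mt-Nd2) 1.51%. mt-Nd1, mt-Nd2, mt-Nd5, mt-Nd6, mt-Cytb and both rRNA genes had no copy of at least 99% identity in the annotation. All levels below are those of the mitochondrial rows as deposited, so for the copied genes they cannot be assigned to the mitochondrial genome alone.

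**Figure D1:**
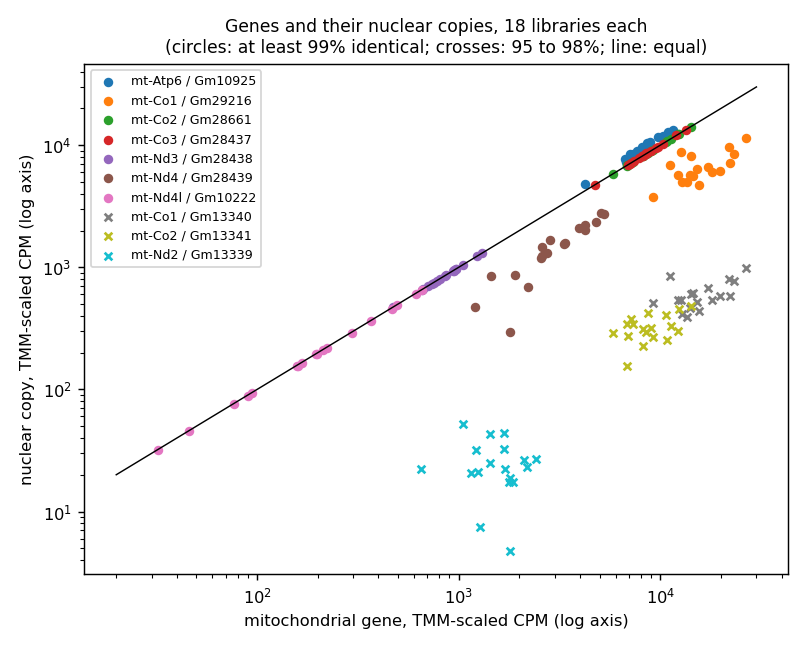
Level of each nuclear copy against its mitochondrial gene in CPM (counts scaled to a common library size; both axes logarithmic), 18 points per pair; circles are copies of at least 99% identity, crosses copies of 95% to 98%, and the line marks equal levels. Copies of mt-Co3, mt-Nd3, mt-Nd4l and mt-Co2 lie on the line, and the copies at 95% to 98% lie far below it.

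Libraries held 24946836 to 37285510 counts, with a median of 31510544. Epcam, an epithelial adhesion protein, was at 1748 to 3150 CPM, whereas Ptprc, which marks leukocytes, was at 0.210 to 0.664 CPM, Col1a1 of fibroblasts at 0.0536 to 0.641 CPM and Pecam1 of endothelium at 0.0922 to 0.423 CPM. Other markers of such cells were higher. The 15 leukocyte markers summed to 13.7 to 38.9 CPM in virgin, 14.1 to 36.4 CPM in pregnant and 17.3 to 33.3 CPM in pseudopregnant libraries. The 13 markers of stroma, endothelium and muscle summed to 3.20 to 5.90, 3.43 to 5.65 and 3.63 to 6.57 CPM in that order. The 28 markers of absorptive enterocytes summed to 40669 to 79076 CPM in the virgin, 48314 to 75322 CPM in the pregnant and 41056 to 64559 CPM in the pseudopregnant libraries. The 30 proliferation markers of the crypt summed to 602 to 1308, 526 to 1148 and 602 to 1346 CPM in the same order. The part of this cell make-up in the mitochondrial levels was measured only as stated below, and fewer cells of a type cannot be told apart from less RNA per cell.

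The 37 genes together took 4.02% to 9.22% of a library's counts, a 2.29-fold range, and no pair of groups differed beyond the spread. Virgin libraries held 5.24%, 5.92% and 8.67% (lowest, median, highest), pregnant libraries 4.02%, 5.78% and 8.35%, and pseudopregnant libraries 5.91%, 6.71% and 9.22%. The groups overlapped over most of their range. Group means were 6.27% ± 1.2405 (SD, n = 6) in virgin, 6.11% ± 1.73 (SD, n = 6) in pregnant and 7.13% ± 1.26 (SD, n = 6) in pseudopregnant libraries. The difference of pregnant minus virgin was -0.163 percentage points (SE 0.870, exact permutation test, two-sided, p = 0.853). The pseudopregnant mean was 0.863 points above the virgin mean (SE 0.721, exact permutation p = 0.251, adjusted over the 3 pairs 0.409), and the difference of pregnant minus pseudopregnant was -1.03 points (SE 0.874, exact permutation p = 0.273, adjusted 0.409). These differences rest on single libraries in part. That of pseudopregnant minus virgin was 0.446 points without pseudopregnant replicate 3 and 1.34 points without virgin replicate 4, and that of pregnant minus pseudopregnant ran from -1.47 points without pregnant replicate 6 to -0.609 points without pregnant replicate 2. With the members that have a near-identical copy left out, the difference between pregnant and virgin turned to 0.0825 points (exact permutation, adjusted p = 0.907). The rows of the 7 near-identical copies held 3.66% ± 0.655, 3.36% ± 0.749 and 3.88% ± 0.676 of counts in the virgin, pregnant and pseudopregnant libraries (SD, n = 6 each). Whether these counts are reads also counted for the mitochondrial genes, or separate reads, was not tested. They are part of the library total in every share given here.

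Nearly all mitochondrial counts came from the 13 mRNAs, which made up 82.9% to 93.7% of them (median 88.6%), although the rRNAs are the larger class in a cell. The 2 rRNAs made up 6.25% to 17.1% (median 11.4%) and the 22 tRNAs 0.0188% to 0.0470%. Group means of the mRNA share were 5.56% ± 1.06 (virgin), 5.39% ± 1.65 (pregnant) and 6.41% ± 1.13 (pseudopregnant; SD, n = 6 each). The rRNAs took 0.710% ± 0.298, 0.715% ± 0.160 and 0.721% ± 0.256 in the same order, means that lay within 0.0108 points of each other. The rRNA share ranged 3.06-fold, from 0.395% in virgin replicate 5 to 1.21% in virgin replicate 4, so libraries of 1 group spanned its whole range.

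**Figure D2:**
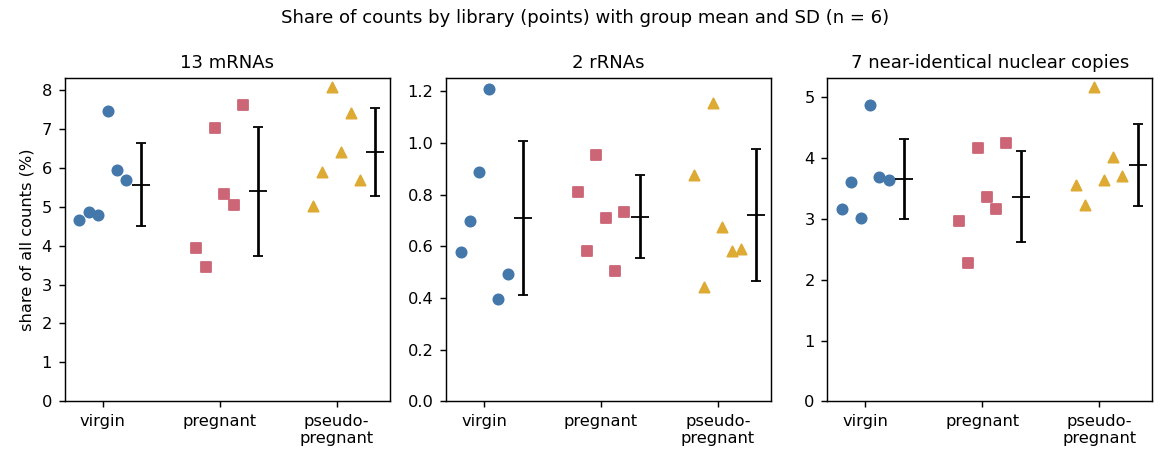
Share of all counts (%) taken by the 13 mRNAs, the 2 rRNAs and the 7 near-identical nuclear copies in each library (points), with the group mean and SD (n = 6). The groups overlap in all 3 panels, and virgin replicate 4 and pseudopregnant replicate 3 hold the highest rRNA shares at 1.21% and 1.16%.

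Single genes were tested in a model over the 14675 genes that passed a filter on low counts. The 13 mRNAs, the 2 rRNAs and 9 of the 22 tRNAs passed that filter. None of these 24 members was called in any of the 3 contrasts by edgeR's quasi-likelihood test at an adjusted p under 0.05, and neither was any other gene (0% of 14675 in each contrast). At an unadjusted p under 0.05, 1 of the 15 mRNAs and rRNAs passed, in the contrast of pseudopregnant with virgin, where 9.37% of all genes did. None of the 15 passed between pregnant and virgin or between pregnant and pseudopregnant, where 3.68% and 2.35% of all genes did. The 13 mRNAs had a median log2 fold change of -0.02 between pregnant and virgin (6 of 13 above 0), 0.22 between pseudopregnant and virgin (10 of 13 above 0) and -0.23 between pregnant and pseudopregnant (1 of 13 above 0). All genes had medians within 0.01 of 0, and 48.5%, 50.6% and 48.4% of them were above 0 in the same order. The 13 mRNAs varied together in part, as given below, so their counts above 0 are not counts of independent genes. The 3 contrasts share groups and are not independent of each other. For none of the 15 did the 2 groups of a contrast separate without overlap, against 0.0681%, 0.0681% and 0.0273% of all genes.

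**Figure D3:**
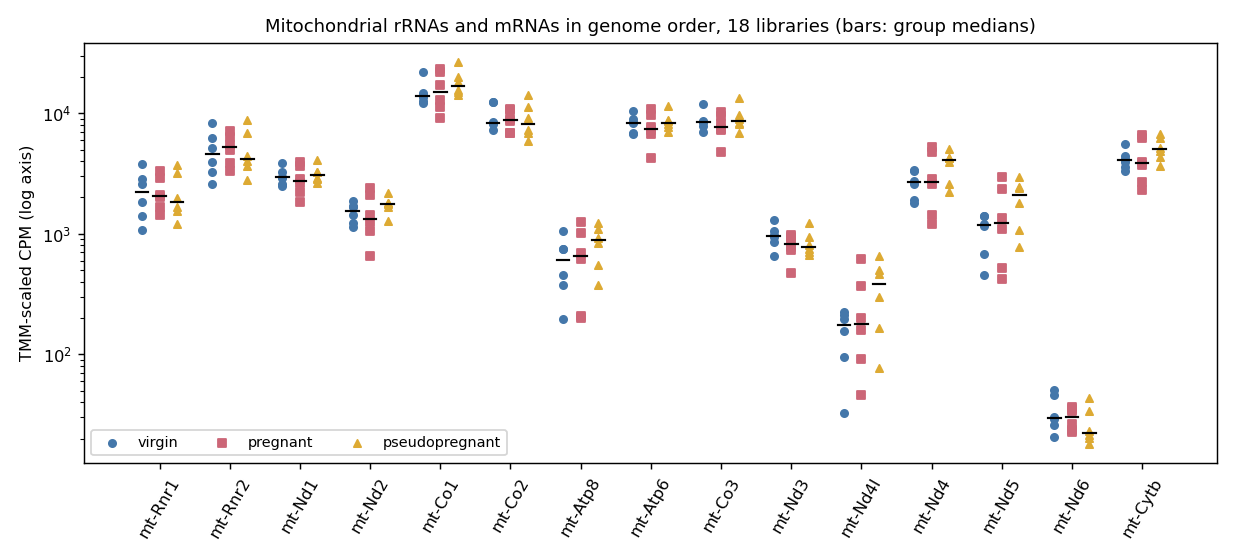
Level of the 2 rRNAs and 13 mRNAs in genome order, in CPM on a logarithmic axis; points are the 18 libraries by group and bars the group medians. Within each group mt-Nd4l, mt-Nd5 and mt-Atp8 spread over a wider range than mt-Nd1, mt-Atp6 and mt-Co3.

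Per length, the mRNAs of complex IV and the ATP synthase subunit mt-Atp6 were the most abundant. Over 18 libraries mt-Co2 was at 13353 ± 3401 CPM per kb (SD), mt-Atp6 at 12060 ± 2556, mt-Co3 at 10997 ± 2476 and mt-Co1 at 10589 ± 3056. mt-Co2 was above mt-Atp6 in 10 of 18 libraries and mt-Co3 above mt-Co1 in 10 of 18, so neither of these neighbouring pairs differed beyond its spread, whereas mt-Atp6 was above mt-Co3 in 15 of 18. mt-Co1 was above mt-Cytb, the next gene at 3958 ± 1144 CPM per kb, in 18 of 18 libraries. Then followed mt-Atp8 (3427 ± 1715), mt-Rnr2 (3193 ± 1170), mt-Nd1 (3144 ± 623), mt-Nd3 (2501 ± 588), mt-Rnr1 (2344 ± 911), mt-Nd4 (2263 ± 900) and mt-Nd2 (1522 ± 425). Among these, mt-Atp8 and mt-Rnr2 were each above the next gene in 9 of 18 libraries. mt-Nd4l (851 ± 645) and mt-Nd5 (806 ± 456) were alike, with mt-Nd4l above in 6 of 18 libraries. mt-Nd6, the 1 mRNA encoded on the light strand, was lowest in every library at 57.8 ± 18.1 CPM per kb, which put mt-Co2 231-fold above it. These levels describe the RNA captured in poly(A) libraries, and the strand setting of the counting is not given. The fold is therefore not a ratio of molecules in the cell.

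The complex IV mRNAs, the catalytic core of cytochrome oxidase, differed little between groups. mt-Co1 was at 12263, 13778 and 21971 CPM (lowest, median, highest) in virgin, at 9204, 15028 and 23130.5 CPM in pregnant and at 14252, 16806 and 26742 CPM in pseudopregnant libraries. Pseudopregnant libraries were thus all above the virgin median, but virgin replicate 4 lay above 5 of them. Its log2 fold changes (edgeR, with SE) were 0.10 ± 0.30 between pregnant and virgin, 0.30 ± 0.30 between pseudopregnant and virgin and -0.19 ± 0.30 between pregnant and pseudopregnant. mt-Co2 was at 7295, 8380 and 12348 CPM in virgin, 6870, 8860 and 10792 CPM in pregnant and 5858, 8175 and 14277 CPM in pseudopregnant libraries, with log2 fold changes of -0.11, -0.06 and -0.05 in the same order (SE 0.26 each). mt-Co3 had means of 8760 ± 1712, 7874 ± 1950 and 9230 ± 2222 CPM (SD, n = 6 each) and log2 fold changes of -0.15, 0.08 and -0.23 (SE 0.24 each).

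mt-Cytb, the only mitochondrial subunit of complex III, and mt-Atp6, part of the proton channel of the ATP synthase, differed as little. mt-Cytb was at 4173 ± 773, 4246 ± 1782 and 5165 ± 1147 CPM in virgin, pregnant and pseudopregnant libraries, and its largest log2 fold change was 0.31 (SE 0.26), between pseudopregnant and virgin. mt-Atp6 was at 8242 ± 1377, 7763 ± 2349 and 8633 ± 1561 CPM, with log2 fold changes of -0.09, 0.07 and -0.15 (SE 0.24 each). Counts of mt-Atp8, the second ATP synthase subunit, were far more variable than those of mt-Atp6. These genes overlap with no tRNA between them, so they may be parts of the same transcript. mt-Atp8 was at 197, 602 and 1051 CPM (lowest, median, highest) in virgin, 200.4, 653 and 1250.4 CPM in pregnant and 376, 881 and 1224 CPM in pseudopregnant libraries. Its log2 fold change between pseudopregnant and virgin was 0.49 (SE 0.44), with 4 of 6 pseudopregnant libraries above the virgin median.

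The 7 complex I mRNAs all encode subunits of the membrane arm. Among them mt-Nd4l, mt-Nd5 and mt-Nd4, which lie together on the genome, had the widest ranges and the largest positive differences. mt-Nd4l was at 32.3, 176 and 223 CPM (lowest, median, highest) in virgin, 46.1, 179 and 613 CPM in pregnant and 77.0, 380.4 and 660 CPM in pseudopregnant libraries. Every group held at least 1 library under 100 CPM, and the groups overlapped. Its log2 fold change between pseudopregnant and virgin was 1.243 (SE 0.57), the one with an unadjusted p under 0.05 (0.0419), and its adjusted p was 0.515 (edgeR's quasi-likelihood test with Benjamini-Hochberg adjustment). Of the 6 pseudopregnant libraries, 4 were above the virgin median, and these 4 also lay above the highest virgin library. Between pregnant and virgin its log2 fold change was 0.70 (SE 0.56), and between pregnant and pseudopregnant -0.55 (SE 0.56). Without pregnant replicate 6 the first of these was 0.18 and the second -1.06, and without pseudopregnant replicate 5 the second was -0.28.

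mt-Nd5 was at 453, 1190.2 and 1412 CPM in virgin, 424, 1219 and 2938 CPM in pregnant and 783, 2104 and 2972 CPM in pseudopregnant libraries. Its log2 fold changes were 0.45 (SE 0.43), 0.86 (SE 0.44) and -0.41 (SE 0.43) for pregnant against virgin, pseudopregnant against virgin and pregnant against pseudopregnant. Without pregnant replicate 6 the first was 0.12 and the third -0.75, and without pregnant replicate 1 the third was -0.21. For mt-Nd4 they were 0.20 (SE 0.33), 0.50 (SE 0.33) and -0.30 (SE 0.33), with group means of 2624 ± 678, 3014 ± 1677 and 3716 ± 1105 CPM in virgin, pregnant and pseudopregnant libraries. For mt-Nd4 between pregnant and virgin the value was -0.03 without pregnant replicate 6 and 0.36 without pregnant replicate 1. For both genes 4 of 6 pseudopregnant libraries were above the virgin median and also above the highest virgin library. None of these differences was called.

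The remaining complex I mRNAs varied less. mt-Nd1 was at 3013 ± 484, 2849 ± 805 and 3165 ± 516 CPM in virgin, pregnant and pseudopregnant libraries, and its log2 fold changes lay between -0.15 and 0.07. mt-Nd2 was at 1507 ± 287, 1484 ± 666 and 1750 ± 289 CPM, with log2 fold changes between -0.24 and 0.22. mt-Nd3 was at 965 ± 216, 794 ± 180.1 and 852 ± 213 CPM, and its log2 fold changes of -0.28 (pregnant against virgin) and -0.18 (pseudopregnant against virgin) had SEs of 0.20 each. mt-Nd6 was at 20.7, 29.6 and 50.2 CPM (lowest, median, highest) in virgin, 22.8, 30.02 and 36.6 CPM in pregnant and 18.2, 22.2 and 43.3 CPM in pseudopregnant libraries. Its log2 fold change between pseudopregnant and virgin was -0.33 (SE 0.23), opposite in sign to those of mt-Nd4l, mt-Nd5 and mt-Nd4.

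**Figure D4:**
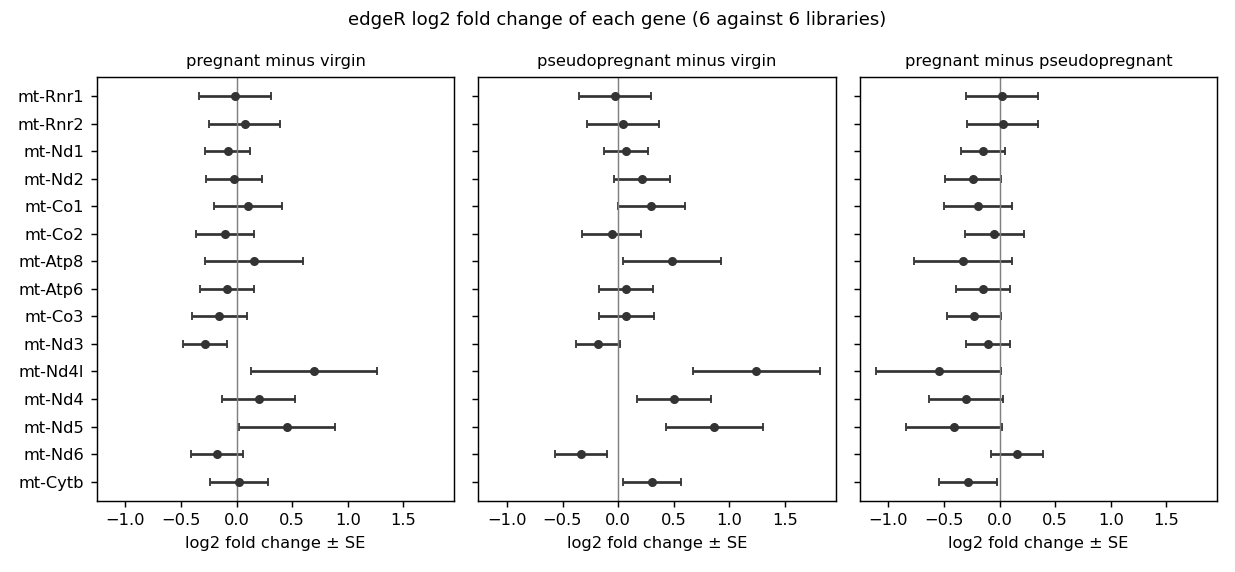
Log2 fold change with SE of the 2 rRNAs and 13 mRNAs in the 3 contrasts (edgeR, 6 against 6 libraries). mt-Nd4l lies farthest from 0 in the first 2 panels at 0.70 and 1.243, with the widest SE.

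The rRNAs of the mitochondrial ribosome showed the smallest differences. mt-Rnr1, of the small subunit, was at 1073, 2205 and 3815 CPM (lowest, median, highest) in virgin, 1433, 2059 and 3318 CPM in pregnant and 1197, 1824 and 3694 CPM in pseudopregnant libraries. mt-Rnr2, of the large subunit, was at 2580.3, 4557 and 8294 CPM, 3295 to 7115 CPM with a median of 5211, and 2802, 4199 and 8747 CPM in the same groups. Their log2 fold changes lay between -0.03 and 0.07 in all 3 contrasts, with SEs of 0.32. These values come from libraries selected for poly(A) RNA and describe the captured rRNA only.

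The 22 tRNA genes were nearly absent, and 13 of them did not pass the filter on low counts, with means of at most 4.33 counts per library. 8 of those had a mean under 1 count, although none was at 0 in all 18 libraries. The 4 tRNA genes with the highest mean were mt-Tw (tryptophan) at 5.25 CPM, mt-Ti (isoleucine) at 4.29 CPM, mt-Tl1 (leucine) at 2.42 CPM and mt-Tt (threonine) at 1.54 CPM. The 9 tested genes had log2 fold changes from -0.86 to 0.62 between pregnant and virgin, -0.91 to 0.94 between pseudopregnant and virgin and -0.40 to 0.05 between pregnant and pseudopregnant. An unadjusted p under 0.05 was reached by 1, 2 and 0 of them, against 3.68%, 9.37% and 2.35% of all genes. These were mt-Tm (methionine) and mt-Tp (proline), named here after their values were seen. mt-Tm was at 0.415 ± 0.207 CPM in virgin and 0.812 ± 0.293 CPM in pseudopregnant libraries (log2 fold change 0.94, SE 0.32, adjusted p = 0.515 by edgeR), with 6 of 6 pseudopregnant libraries above the virgin median. mt-Tp was at 1.41 ± 0.773 CPM in virgin, 0.772 ± 0.301 CPM in pregnant and 0.756 ± 0.314 CPM in pseudopregnant libraries (log2 fold changes -0.86 and -0.91 against virgin, adjusted p = 0.891 and 0.515 by edgeR). Without virgin replicate 2 the log2 fold changes of mt-Tp were -0.55 and -0.61, and with the length slope described below as a covariate -0.52 and -0.37. Both genes rest on means of 19.7 and 29.7 counts per library.

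Ratios within a library do not depend on scaling between libraries, and none of 5 such ratios differed between groups after adjustment over the 15 tests. The closest was the ratio of mt-Nd6 to the 12 heavy-strand mRNAs, with medians of 0.0556%, 0.0541% and 0.0387% for virgin, pregnant and pseudopregnant libraries. Its log2 difference between pseudopregnant and virgin was -0.52 (SE 0.21, exact permutation p = 0.0346, adjusted 0.519). The ratio of the 2 rRNAs to the mRNAs had medians of 13.4%, 13.5% and 10.5% in virgin, pregnant and pseudopregnant libraries, and over all 18 libraries ran from 6.67% to 20.6%. Complex I mRNAs stood at a median of 26.8%, 29.4% and 31.7% of complex IV mRNAs in the same order. The log2 ratio of the tRNAs to the mRNAs differed by -0.06 to -0.24 from virgin, and that of the copied to the other mRNAs by -0.12 and -0.23. For these 4 ratios the smallest exact permutation p was 0.106, and the adjusted p was 0.739 or more.

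Ratios between single protein-coding genes were also taken in each library. mt-Atp8 and mt-Atp6, like mt-Nd4l and mt-Nd4, overlap with no tRNA between them, so their ratios may compare parts of the same transcript. mt-Nd4l was at 0.262% of mt-Co2 in virgin replicate 2 and at 9.17% in pseudopregnant replicate 5, a 35.0-fold range, and at 1.80% to 12.96% of mt-Nd4, the gene it overlaps. mt-Nd5 ran from 3.68% to 41.3% of mt-Co2, between the same 2 libraries. mt-Atp8 ran from 2.39% to 14.3% of mt-Atp6, again with virgin replicate 2 lowest and pseudopregnant replicate 5 highest. These 4 ratios were chosen after the values were seen and were not tested between groups.

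The mRNA share was compared with 7 other measures of the same libraries, with p-values from permutation adjusted over the 7. It was lower where nuclear genes of oxidative phosphorylation were higher (r = -0.64, permutation p = 0.00429, adjusted 0.0259; rho = -0.69, adjusted 0.0164). It was also lower where cytoplasmic ribosomal protein genes took more counts (r = -0.60, permutation p = 0.00865, adjusted 0.0259; rho = -0.53, adjusted 0.0611). It was higher where long nuclear transcripts were higher relative to short ones, measured as the slope of log2 level on log2 transcript length over 6339 well-expressed nuclear genes (r = 0.59, permutation p = 0.0111, adjusted 0.0259; rho = 0.57, adjusted 0.0531). Without the 2 libraries farthest from the median of each measure, r was -0.52, -0.57 and 0.51. The mRNA share and the ribosomal protein share are percents of the same library total, so they are not free to vary independently. Within the virgin, pregnant and pseudopregnant groups r was -0.63, -0.79 and -0.43 for the oxidative phosphorylation score, -0.21, -0.83 and -0.71 for the ribosomal protein share and 0.26, 0.81 and 0.49 for the length slope, and the only exact permutation p under 0.05 among these 9 was 0.0389, for the length slope in the pregnant group. The 3 adjusted p-values moved to 0.0776 without pregnant replicate 1, to 0.0611 without pregnant replicate 6 and to between 0.0572 and 0.0735 without pseudopregnant replicate 5, so each of these relations passed only with each of those 3 libraries in. The rRNA share (r = 0.40), total counts (r = 0.39), the score of immediate early genes (r = 0.39) and the villus-minus-crypt score (r = 0.17) did not pass, with adjusted permutation p of 0.133 or more, but that of the immediate early genes passed without virgin replicate 2 (r = 0.57, adjusted permutation p = 0.0319).

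These measures were themselves related. The oxidative phosphorylation score and the length slope had r = -0.96 over the 18 libraries. The length slope averaged -0.07 ± 0.12, 0.00 ± 0.14 and 0.07 ± 0.17 for virgin, pregnant and pseudopregnant libraries (SD, n = 6 each), a log2 change per doubling of transcript length. Its difference between pseudopregnant and virgin libraries had an exact permutation p of 0.113 (adjusted over the 3 pairs 0.338). The lowest slopes belonged to virgin replicate 2 (-0.25) and pregnant replicate 1 (-0.24), the highest to pseudopregnant replicates 5 (0.267) and 4 (0.205).

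Single mitochondrial mRNAs followed this slope of the nuclear transcripts to very different extents, which was examined after their levels had been seen. Over the 18 libraries the log2 level of mt-Nd4l had r = 0.95 with the slope (rho = 0.91) and mt-Nd5 r = 0.91 (rho = 0.89), each with a permutation p of 1e-05 for r, the smallest that 100000 permutations can give (adjusted over 15 genes 7.5e-05). mt-Nd4 had r = 0.83 (adjusted permutation p = 0.00025, rho = 0.83) and mt-Atp8 r = 0.80 (adjusted permutation p = 0.0003, rho = 0.79). mt-Nd6 ran the other way (r = -0.68, rho = -0.68, adjusted permutation p = 0.00597). Weaker relations were those of mt-Cytb (r = 0.62, adjusted permutation p = 0.0158), mt-Co1 (r = 0.55, 0.0378), mt-Co2 (r = -0.53, 0.0423) and mt-Nd3 (r = -0.52, 0.0436). That of mt-Cytb was lost without pregnant replicate 1 (r = 0.54). That of mt-Co1 was lost without virgin replicate 1 or 2, pregnant replicate 1 or 6, or pseudopregnant replicate 4 or 5 (r = 0.49 to 0.55). That of mt-Co2 was lost without virgin replicate 2 or 3, pregnant replicate 1, or pseudopregnant replicate 1, 2, 4 or 5 (r = -0.53 to -0.46), and that of mt-Nd3 without any of 11 libraries, namely those of mt-Co2 and virgin replicates 4, 5 and 6 and pregnant replicate 4 (r = -0.53 to -0.41). mt-Nd2 (r = 0.49, 0.0562) gained the threshold without virgin replicate 3, pregnant replicate 2 or pseudopregnant replicate 1 (r = 0.54, 0.60 and 0.54). The remaining 5 genes had r between -0.29 and 0.27. For mt-Nd4l the relation was as close within the groups, with r = 0.90, 0.96 and 0.98 for virgin, pregnant and pseudopregnant libraries, and it was 0.93 without the 2 farthest libraries. A slope higher by 0.1 went with 0.78 on the log2 scale for mt-Nd4l, 0.54 for mt-Nd5, 0.48 for mt-Atp8 and -0.20 for mt-Nd6. Across the 13 mRNAs, r did not follow gene length (rho = 0.28) or GC content (rho = 0.25), a description over genes of 1 genome.

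The 2 nuclear copies that match 1 end of a gene gave a value for position within the transcript. Gm28439, which matches the 5′ part of mt-Nd4, held 16.6% of the mt-Nd4 count in virgin replicate 2, 31.3% in pseudopregnant replicate 1 and 39.5% in pregnant replicate 1, the 3 lowest values, against a median of 48.2%. Gm29216, which matches the 3′ part of mt-Co1, held 69.7%, 57.0% and 61.9% of the mt-Co1 count in those same libraries, the 3 highest values, against a median of 39.7%. The first of these percentages had r = 0.71 with the length slope (rho = 0.80, adjusted permutation p = 0.00031 for r), and the second r = -0.90 (rho = -0.93, adjusted permutation p = 2e-05). Within the virgin, pregnant and pseudopregnant groups r was 0.87, 0.55 and 0.90 for the first and -0.88, -0.96 and -0.94 for the second. Libraries with a low length slope were thus low in mt-Nd4l and had a lower first and a higher second percentage. These are percentages of the gene's own count, and the level of the copy itself need not follow them. Gm29216 was at 6938 CPM in pregnant replicate 1 and at 8407 CPM in pregnant replicate 3, which had the higher slope.

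**Figure D5:**
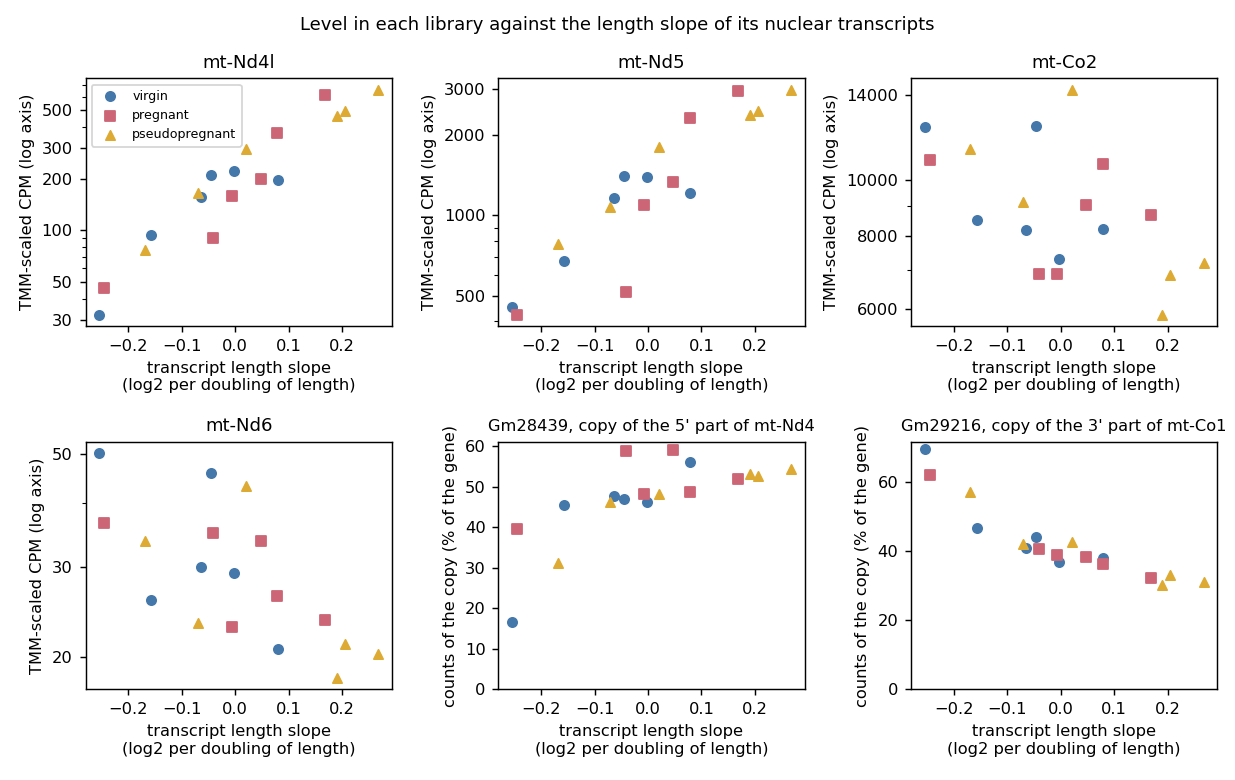
Level of mt-Nd4l, mt-Nd5, mt-Co2 and mt-Nd6 (CPM, logarithmic axis) and counts of 2 nuclear copies as a percent of their gene, each against the transcript length slope of the library, 18 points per panel. mt-Nd4l climbs along the slope, from 32.3 to 223 CPM in virgin, 46.1 to 613 CPM in pregnant and 77.0 to 660 CPM in pseudopregnant libraries, mt-Nd6 declines, and the copy of the 3′ part of mt-Co1 falls from 69.7% to about 30.2%.

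With the slope as a covariate in the edgeR model, the log2 fold change of mt-Nd4l between pseudopregnant and virgin libraries went from 1.243 to -0.01, that of mt-Nd4 from 0.50 to -0.04 and that of mt-Atp8 from 0.49 to -0.25. Those of mt-Nd4l and mt-Nd5 between pregnant and virgin went from 0.70 to -0.12 and from 0.45 to -0.13. With each setting and each left-out library, the adjusted p of mt-Nd4l between pseudopregnant and virgin ranged from 0.179 to 1.

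The 13 mRNAs varied together only in part. Of their 78 pairs, 63 had a positive correlation of log2 CPM over the 18 libraries, with a median r of 0.67. By this measure the gene most like mt-Nd4l was mt-Nd5 (r = 0.98), then mt-Nd4 (r = 0.93) and mt-Atp8 (r = 0.92), and the least like was mt-Nd6 (r = -0.61). The points share libraries and their scaling, so these values describe the 18 libraries only.

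No nuclear gene of mitochondrial gene expression was called in any contrast, among 17 of transcription and replication, 34 of RNA processing, 15 regulators of biogenesis, 77 tested proteins of the mitochondrial ribosome, 53 of oxidative phosphorylation and 16 of the mitochondrial stress response (0% of all genes were called). Polrmt, the mitochondrial RNA polymerase, was at 25.995 ± 2.28 CPM in virgin, 23.4 ± 3.01 CPM in pregnant and 23.6 ± 3.54 CPM in pseudopregnant libraries. Tfam, which packages mitochondrial DNA and starts transcription, was at 50.4 ± 6.70, 47.3 ± 10.4 and 45.2 ± 9.26 CPM. Lrpprc and Slirp, which together stabilise mitochondrial mRNAs, were at 62.9 ± 10.3, 62.3 ± 14.3 and 65.8 ± 18.9 CPM and at 31.9 ± 7.75, 25.8 ± 7.16 and 26.7 ± 8.81 CPM. For none of these 4 did a log2 fold change exceed 0.31 in size.

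The list medians of the nuclear genes were mostly below 0 against virgin, where the median of all genes was within 0.01 of 0. Of all genes, 48.5% were above 0 between pregnant and virgin and 50.6% between pseudopregnant and virgin. Genes of a list can vary together across libraries, so the counts above 0 here and for the other lists are descriptions only. For the mitochondrial ribosome the median was -0.21 between pregnant and virgin (0 of 77 above 0) and -0.27 between pseudopregnant and virgin (1 of 77 above 0). For nuclear genes of oxidative phosphorylation it was -0.08 (9 of 53 above 0) and -0.31 (3 of 53 above 0), while the 13 mitochondrial mRNAs stood at -0.02 and 0.22 in those contrasts. Between pregnant and pseudopregnant the medians were 0.08 (57 of 77 above 0) and 0.21 (50 of 53 above 0). Without virgin replicate 2 the oxidative phosphorylation median between pregnant and virgin was 0.01, and without pregnant replicate 1 it was -0.28. The mitochondrial ribosome median in that contrast was -0.12 without virgin replicate 2 and -0.34 without pregnant replicate 1. With the length slope as a covariate the pseudopregnant medians of the 2 lists became 0.00 and 0.04.

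Medians of other gene lists lay on both sides of 0 in these contrasts. Between pregnant and virgin the 85 cytoplasmic ribosomal protein genes had a median of -0.27 (0 of 85 above 0), the proliferation markers -0.21 (0 of 30), the goblet cell markers -0.30 (0 of 12), the enteroendocrine markers -0.35 (0 of 16) and the absorptive enterocyte markers 0.39 (23 of 28). Between pseudopregnant and virgin these medians were -0.42 (0 of 85), 0.02 (17 of 30), -0.21 (3 of 12), -0.20 (3 of 16) and 0.17 (19 of 28). Their part in the nuclear list medians was not tested. Transcription and replication factors had medians of -0.09 and -0.13, RNA processing -0.12 and -0.11, the stress response -0.18 and -0.07, and the regulators of biogenesis 0.02 and 0.05.

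The members with the smallest p in each list give the size of the single differences, none of which was called (adjusted p of 0.515 to 0.920 by edgeR). Among transcription factors, Tefm, the elongation factor, had a log2 fold change of -0.37 between pseudopregnant (4.65 ± 0.893 CPM) and virgin (6.03 ± 1.31 CPM). Ssbp1, which binds single-stranded mitochondrial DNA, and Mterf1b, of the transcription terminator family, had log2 fold changes of -0.34 and -0.37 between pregnant and virgin. Of the RNA processing genes, Trmu, which modifies tRNAs, had -0.41 between pseudopregnant and virgin, Pnpt1, which degrades RNA, had -0.39 between pregnant and pseudopregnant, and Trmt61b, a tRNA and rRNA methyltransferase, had -0.45 between pregnant and virgin.

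Among the regulators of biogenesis the named differences were positive, but the list as a whole was split. Of its 15 genes, 8 were above 0 between pregnant and virgin and 10 between pseudopregnant and virgin. Ppargc1a, a coactivator that drives mitochondrial biogenesis, differed by 0.49 (SE 0.23) on the log2 scale between pregnant (41.9 ± 15.4 CPM) and virgin (29.9 ± 8.35 CPM), with 5 of 6 pregnant libraries above the virgin median, and by 0.28 without pregnant replicate 6. Esrrg, a nuclear receptor that works with it, was at 4.61 ± 2.30 CPM in pseudopregnant against 2.57 ± 0.992 CPM in virgin libraries (0.84, SE 0.33), with 5 of 6 above the virgin median. Prkaa2, a catalytic subunit of the energy sensor AMPK, had 0.41 (SE 0.22) in the same contrast. Its value was 0.24 without pseudopregnant replicate 5 and -0.003 with the length slope as a covariate. In the ribosome list, Mrps10 (-0.41) and Mrpl44 (-0.30) were the named genes between pregnant and virgin and Mrps18a (-0.38) between pseudopregnant and virgin. In the oxidative phosphorylation list, Ndufs8 (-0.39), Ndufs7 (-0.42) and Cox7c (-0.50) were named between pseudopregnant and virgin, and without virgin replicate 2 Ndufs7 and Cox7c both stood at -0.27. Of the stress response, Atf5, a transcription factor of that response, had -0.38 and Phgdh, of serine synthesis, -0.45 between pregnant and virgin. Chac1, which degrades glutathione, had 1.36 (SE 0.55) between pseudopregnant and virgin, where its highest library was at 9.18 CPM and its median at 1.47 CPM. Without pseudopregnant replicate 4 its log2 fold change was 0.29.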

How the data were processed

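Gene counts deposited by the authors from poly(A) RNA of sorted ileal epithelial cells were analysed in 18 libraries. The deposited values are raw counts per Ensembl gene, 1 table per library. Their processing notes name, with no role or order, the build GRCm38 and the tools HISAT2 2.0.4, featureCounts and Subread 2.0.0, FastQC 0.11.5 and DESeq2 1.24.0, all credited to the submitters. The sources used here do not give the strand setting, the treatment of multi-mapping reads or the annotation release, so genes that overlap, lie antisense to each other or have near-identical copies may share reads. GENCODE M21 (GRCm38) gave positions, symbols (47310 genes) and transcript sequences. The 37 mitochondrial transcripts were compared with all annotated transcripts by BLAST 2.17.0 (at least 30 bases; 95% identity listed, 99% called near-identical).

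The sample titles gave the group and replicate number. The members, gene lists and tests were chosen with earlier results of these data known. Genes passing filterByExpr (14675) were scaled by TMM and fitted with edgeR 4.0.16 (R 4.3.3; quasi-likelihood, legacy = FALSE, 1 mean per group). P-values are two-sided and adjusted by Benjamini-Hochberg over the genes of each contrast, with a threshold of 0.05. The fit was tested on simulated data. CPM are TMM-scaled, while shares are percents of raw counts. Shares and ratios were compared by exact permutation, and correlations by 100000 permutations. The measures of a library (scores of gene lists, length slope, GC slope) are deviations from the mean log2 CPM with a prior count of 2, and the slopes used nuclear genes at a mean of at least 20 CPM. DESeq2 1.42.0, limma 3.58.1 (voom), other scalings, covariates and leaving out each library were the alternatives. No 2 tables were identical, and replicates of a group differed by a chi-square per gene of 35.5 to 456. The text names all mRNAs and rRNAs, the 4 tRNAs of highest mean, nuclear copies at a mean of at least 1 CPM, and of each nuclear list the 3 genes of smallest p in any contrast. Of the listed genes, Prorp and Fastkd4 were not matched.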

Additional observations from a re-analysis of the deposited data

Results flagged for a closer look

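Within groups of 6 libraries, 84 groups of values were examined for a single library whose gap to the nearest other exceeded Dixon's 95% limit, and 8 values did, where chance flags about 1 in 20 groups. Virgin replicate 4 stood above the other virgin libraries in 4 of these. The 37 genes took 8.67% of its counts against 5.24% to 6.32% in the other 5, and the near-identical nuclear copies 4.87% against 3.01% to 3.68%. Its mt-Co1 was at 21971 CPM against 12263 to 14613 CPM, and its mt-Co3 at 12034 CPM against 7047 to 8635 CPM.

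Pseudopregnant replicate 3 held mt-Atp6 at 11574 CPM against 7054 to 8709 CPM in the other pseudopregnant libraries. The other 3 values belong to tRNA genes of low count. mt-Ti was at 9.22 CPM in pregnant replicate 1 against 2.82 to 3.85 CPM in its group, and at 10.4 CPM in pseudopregnant replicate 1 against 1.68 to 4.47 CPM. mt-Tt was at 2.88 CPM in virgin replicate 2 against 1.43 to 1.63 CPM in its group.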

How the results depend on the processing

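Of 2285 values recomputed under alternatives, list medians not counted, 2117 kept their direction and their side of the threshold, and 127 changed sign, all of them differences not called in any setting or the relation of mt-Co3 to the length slope. No mitochondrial gene tested was called in any contrast by any of these tools, covariates or left-out libraries. Between pregnant and virgin DESeq2 called 5 genes, the replicate block 1, and the fit without pseudopregnant replicate 1, which shares its spread with the other groups, 1 (adjusted p = 0.0453), none of them mitochondrial. Same-numbered libraries correlated between -0.483 and 0.662 in their deviations, with 10 of 18 pairs over 0.1 and 5 of 18 libraries closest to their own number, so the numbers were not taken as pairs. With the replicate block the difference in share between pregnant and virgin had an adjusted permutation p of 0.813, and 979, 1988 and 618 genes had an unadjusted p under 0.05 against 540, 1375 and 345. Those counts were 627, 1504 and 389 with DESeq2, 528, 1107 and 247 with limma-voom, 989, 1966 and 844 of 27470 genes without the filter, 332, 1779 and 242 with the villus-minus-crypt score, 692, 314 and 430 with the length slope and 670, 448 and 189 with the GC slope. Leaving out single libraries gave 223 (without pregnant replicate 4) to 1953 (without virgin replicate 3), 540 (without pseudopregnant replicate 5) to 3390 (without pseudopregnant replicate 1) and 120 (without pseudopregnant replicate 4) to 1568 (without pseudopregnant replicate 1). The share difference between pregnant and virgin became 0.0825 points without the copied members, and the relation of the mRNA share to the rRNA share became 0.531 when taken for all 37 genes, which include the rRNAs. With the length slope as a covariate, log2 fold changes between pregnant and virgin turned to 0.0666 (mt-Rnr1), -0.0347 (mt-Co1), 0.0113 (mt-Co2), -0.347 (mt-Atp8), -0.124 (mt-Nd4l), -0.183 (mt-Nd4), -0.127 (mt-Nd5) and -0.166 (mt-Cytb). With the length slope as a covariate, log2 fold changes between pseudopregnant and virgin turned to 0.0982 (mt-Rnr1), -0.00883 (mt-Nd1), -0.021 (mt-Nd2), 0.123 (mt-Co2), -0.251 (mt-Atp8), -0.00951 (mt-Nd4l), -0.035 (mt-Nd4), -0.00298 (Prkaa2), 0.00562 (Ndufs7) and 0.00191 (Cox7c). With the length slope as a covariate, log2 fold changes between pregnant and pseudopregnant turned to -0.0315 (mt-Rnr1) and -0.00828 (mt-Rnr2). With the GC slope, chosen after seeing the data, log2 fold changes between pregnant and virgin turned to 0.0243 (mt-Rnr1) and -0.011 (mt-Cytb). With the GC slope, chosen after seeing the data, log2 fold changes between pseudopregnant and virgin turned to 0.164 (mt-Rnr1) and 0.0457 (mt-Co2). With the GC slope, chosen after seeing the data, log2 fold changes between pregnant and pseudopregnant turned to -0.14 (mt-Rnr1), -0.0884 (mt-Rnr2) and 0.0106 (mt-Atp8). With the villus-minus-crypt score, log2 fold changes between pregnant and virgin turned to -0.209 (mt-Rnr2), -0.0897 (mt-Co1) and -0.0919 (mt-Cytb). With the villus-minus-crypt score, log2 fold changes between pseudopregnant and virgin turned to -0.0978 (mt-Rnr2). With the villus-minus-crypt score, log2 fold changes between pregnant and pseudopregnant turned to -0.122 (mt-Rnr1) and -0.111 (mt-Rnr2). With limma-voom, log2 fold changes between pregnant and virgin turned to 0.0549 (mt-Rnr1) and -0.0734 (mt-Cytb). With the replicate block, log2 fold changes between pregnant and virgin turned to 0.00325 (mt-Rnr1) and -0.0461 (mt-Cytb). Leaving out single libraries, differences between pregnant and virgin ranged -0.612 to 0.316 (share of counts from the mitochondrial genome), -0.0104 to 0.285 (rRNA to mRNA), -0.278 to 0.0725 (mt-Nd6 to heavy-strand mRNAs), -0.0733 to 0.116 (complex I to complex IV mRNAs), -0.202 to 0.072 (tRNA to mRNA), -0.158 to 0.201 (mt-Rnr1), -0.0579 to 0.286 (mt-Rnr2), -0.195 to 0.019 (mt-Nd1), -0.216 to 0.132 (mt-Nd2), -0.0315 to 0.249 (mt-Co1), -0.123 to 0.395 (mt-Atp8), -0.208 to 0.0399 (mt-Atp6), -0.0307 to 0.36 (mt-Nd4) and -0.145 to 0.151 (mt-Cytb). Leaving out single libraries, differences between pseudopregnant and virgin ranged -0.239 to 0.182 (mt-Rnr1), -0.184 to 0.256 (mt-Rnr2), -0.0173 to 0.151 (mt-Nd1), -0.234 to 0.0402 (mt-Co2), -0.0358 to 0.142 (mt-Atp6) and -0.0602 to 0.186 (mt-Co3). Leaving out single libraries, differences between pregnant and pseudopregnant ranged -0.126 to 0.227 (mt-Rnr1), -0.0936 to 0.257 (mt-Rnr2), -0.145 to 0.129 (mt-Co2) and -0.167 to 0.0457 (mt-Nd3). Correlations ranged -0.722 to -0.578 (mRNA share to nuclear oxidative phosphorylation score), 0.517 to 0.644 (mRNA share to transcript length slope), -0.696 to -0.54 (mRNA share to share of cytoplasmic ribosomal protein genes), 0.271 to 0.573 (mRNA share to immediate early score) and -0.0683 to 0.0717 (mt-Co3 to length slope). The cause of these changes was not tested. The medians of 18 nuclear list contrasts kept their sign under the other scalings, DESeq2, limma-voom, the block and no filter, whereas 7 changed sign with the length slope, 5 with the GC slope and 4 with the villus-minus-crypt score. Leaving out single libraries of a contrast changed 12 of 216 list medians in sign, with 2 each without virgin replicate 2 or pregnant replicate 1, 3 or 6. The mean of log2 CPM was not run for the ratio of tRNAs to mRNAs. The 13 tRNA genes not tested had means of at most 4.33 counts.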
